A study of Mus musculus with 6 samples.

Results

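The BH3-only genes encode the initiators of mitochondrial apoptosis, and 8 of them were followed here across 2 genotypes of mouse embryo: Bbc3, Pmaip1, Bid, Bad, Bik, Bmf, Hrk and Bcl2l11. They were taken by gene symbol from the array's own annotation, with every non-control probe of each gene. This gave 13 probes for 8 genes, out of 41174 distinct probes and 19505 genes of the reference table. All 13 probes and all 8 genes entered the test, which covered 27834 probes and 15018 genes.

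RNA of whole embryos at embryonic day 8.5 (E8.5) was hybridised to 1-colour Agilent arrays, with 1 array per sample. Embryos of the genotype Brg1d/d (Brg1 CKO), a conditional knockout of Brg1, gave 3 arrays, called CKO 1, 2 and 3. Embryos of the genotype Brg1fl/fl (Brg1 wildtype), with floxed alleles, gave the 3 arrays called control 1, 2 and 3. Per the labels, tamoxifen was injected intraperitoneally into the dam, as stated for all 6 samples, and the replicates are biological. The Cre transgene, the cells in which it acts and whether a sample is 1 embryo or a pool go unstated in the labels. Brg1, encoded by Smarca4, is the ATPase of SWI/SNF-type chromatin remodelling complexes.

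BH3-only proteins are activated by transcription, cleavage, dephosphorylation or release from the cytoskeleton when a cell is damaged or deprived of survival signals. They bind the groove of the BCL2-type guardians, and some also engage BAX and BAK directly, after which the outer mitochondrial membrane is permeabilised, cytochrome c is released and caspases are activated. Bbc3 (PUMA) and Pmaip1 (NOXA) are well known targets of the transcription factor p53, while Bim, Bid, Bad and Bmf are largely regulated at the protein level as well. In embryos, this pathway removes surplus and damaged cells during morphogenesis.

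Of the 8 genes, 2 passed the test and both rose in CKO embryos: Pmaip1 by 4.56-fold and Bbc3 by 2.86-fold. A gene was read through its probe with the highest mean, and passing means a limma adjusted p under 0.05. That is 25% of the members, beside 10.6% of all genes tested, 5.24% higher and 5.32% lower in CKO. No BH3-only gene fell in the limma test, and none was lower in CKO at an unadjusted p under 0.05 either. At that level 3 of 8 were higher, 1 of them Hrk, whose probe met the filter on dim signals only through the CKO arrays, beside 32.6% of all genes, 17.8% higher and 14.8% lower in CKO. A single probe of Bmf also rose, by 2.66-fold, while its other 2 probes did not pass. Counted by probe, 3 of 13 passed, or 23.1%, all higher in CKO, beside 9.37% of all probes, 5.02% higher and 4.35% lower. The median log2 difference of the 8 genes was 0.42, against 0.07 for all genes tested. For CKO 2 minus the 3 controls of its scan day, these medians were 0.25 and 0.0039. Since the tissue was bulk RNA, fewer cells of a type and less RNA per cell cannot be told apart in any of these values.

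Sequences are shown for a promoter stretch and for probes named below. The first is the Bbc3 region before the transcription start, because Bbc3 rose and a match to the p53 response element was found there. The RefSeq table (GRCm38.p6) gave promoter windows for 6 of the 8 members, and not for Pmaip1 or Bik. The window searched runs from 250 bases before to 50 bases after each start. The element was written as 2 half-sites of 10 bases with no spacer, on both strands, each of 3 purines, a core of C and G around 2 bases that are A or T, and 3 pyrimidines. Both cores had to be intact, and up to 3 mismatches were allowed in all 20 bases. That limit was set after the Bbc3 window had been read, so the match in that window was known beforehand. Of the 12 member windows 1 held the element, and of all 32851 windows 0.572% did. Because the limit was chosen in this way, these 2 shares say nothing about enrichment among the members. In the 250 bases before the start at chr7:16309333-16309582 (+ strand, GRCm38.p6), the capitals mark the element, which begins 97 bases before the start and has 3 mismatches.
Bbc3 upstream region: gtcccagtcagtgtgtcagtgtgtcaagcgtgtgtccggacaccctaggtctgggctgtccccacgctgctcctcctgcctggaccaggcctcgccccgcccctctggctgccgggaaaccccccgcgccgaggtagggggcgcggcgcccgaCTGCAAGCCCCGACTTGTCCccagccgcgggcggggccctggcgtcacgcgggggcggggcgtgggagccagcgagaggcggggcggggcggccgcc

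A match is a description of these letters and not of binding, which the arrays did not measure. The 2 further Bbc3 windows, at other annotated starts, held no such element, and neither did the 9 windows of Bid, Bad, Bmf, Hrk and Bcl2l11. No match says only that these letters are not in those windows.

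The other sequences are 2 of the array's 60-base probes, shown because each stood apart from other probes of its own gene. The array's annotation places them in mouse build mm7, with the Bmf probe at chr2:118273425-118273484 on the minus strand. The Bcl2l11 probe maps to chr2:127888010-127899105 on the plus strand, a span of 11096 bases for a 60-base oligonucleotide, so it joins stretches that lie apart in the genome.
Bmf probe A_51_P482239: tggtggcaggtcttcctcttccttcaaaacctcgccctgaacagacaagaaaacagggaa
Bcl2l11 probe A_51_P484880: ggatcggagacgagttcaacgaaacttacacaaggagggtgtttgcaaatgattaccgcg

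Several features of the whole series bear on the results. The targeted gene followed its labels: probe A_51_P331702 of Smarca4 read 1.49, 2.65 and 2.0 in CKO embryos, against 5.28, 4.45 and 4.50 in controls, 6.47-fold lower in CKO (adjusted p = 0.0114), and its other 2 probes also fell. CKO 2 and all 3 controls were scanned on 1 day, and CKO 1 and CKO 3 on a day each. The CKO arrays also had slides of their own, while the controls shared 1 slide, so slide and genotype cannot be told apart. CKO 1 and CKO 3 had low spike-in signals, at 12934 and 6905 units for the brightest control probe, against 231544 on CKO 2 and 208550 to 241121 on the controls. Control 1 stood farthest from the other arrays. Differences between CKO 2 and the 3 controls of its scan day are therefore given as same-day differences beside the pooled ones. Some cell-type markers also differed: of 10 heart markers tested 9 fell and none rose, their summed level being 12.7 to 18.3 in CKO embryos and 144 to 207 in controls. Of 7 trophoblast markers 5 rose, with sums of 26.3 to 35.8 in CKO embryos and 14.3 to 21.8 in controls, and Tpbpa was not well above background on any array. Neural and somite markers fell in 4 of 8 genes each, while 1 neural marker rose. Primitive erythroid markers fell in 2 of 9. The yolk sac endoderm sums overlapped, at 306 to 358 in CKO embryos and 90.1 to 417 in controls, with control 1 the low array, and none of 9 genes passed (limma) or had an unadjusted p under 0.05. Of leukocyte markers 1 of 5 fell, Ptprc being not well above background on any array, and of decidua and uterus markers 1 of 6 rose and 3 fell. Some of these calls were of dim probes. Hemgn and Ermap (erythroid), En1 (neural), Lfng (somite) and Cd79b (leukocyte) fell, and met the filter on dim signals only through the controls. Prl8a2 (decidua) rose, and met it only through the CKO arrays. The part of the cell-type markers in the BH3-only results was not tested.

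Levels below are log2 processed signal minus the array's own 75th percentile, so a level of 0 is that percentile, and levels of different probes are not comparable.

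Pmaip1 encodes NOXA, which binds chiefly the guardian MCL1 and promotes its degradation. Its only probe, A_51_P477121 on chromosome 18, read 1.67, 1.57 and 1.30 in CKO embryos, against -0.54, -0.78 and -0.70 in controls. Every CKO array lay above every control array, with 1.84 between the nearest pair. The means were 1.52 ± 0.19 in CKO embryos and -0.67 ± 0.12 in controls (SD, n = 3 each). The difference was 2.19 ± 0.17 (SE), with a 95% interval of 1.78 to 2.60 and an adjusted p of 0.00255 (limma). The same-day difference was 2.25, as large as the pooled one. With scan day as a block the estimate is this same-day difference by construction, because CKO 1 and CKO 3 were alone on their scan days. That block leaves 1 CKO array against 3 controls, and Pmaip1 did not pass there. Over every array left out in turn the difference stayed between 2.11 and 2.30 and passed each time.

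Bbc3 encodes PUMA, which binds all the main guardians and is among the most potent killers of the family. Its probe, A_51_P248122 at chr7:14080459-14080518 on the plus strand (mm7), read 2.82, 3.14 and 2.86 in CKO embryos, against 1.82, 1.32 and 1.12 in controls. The genotypes did not overlap, and the nearest CKO and control arrays were 0.99 apart. Means were 2.94 ± 0.17 in CKO embryos and 1.42 ± 0.36 in controls (SD, n = 3 each). The log2 difference was 1.52 ± 0.23 (SE), with a 95% interval of 0.98 to 2.06 (limma adjusted p = 0.0152). The same-day difference was 1.72. Bbc3 no longer passed in 6 settings, among them scan day as a block, which leaves 1 CKO array. Others were the spike-in split as a block (limma adjusted p = 0.112) and CKO 1, CKO 3 or control 2 left out (0.0647, 0.0649 and 0.0773). Its difference in these 5 settings was 1.47 to 1.72. Without control 1, the array farthest from the rest, the difference was 1.72 for Bbc3 and 2.26 for Pmaip1, and both passed.

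**Figure D1:**
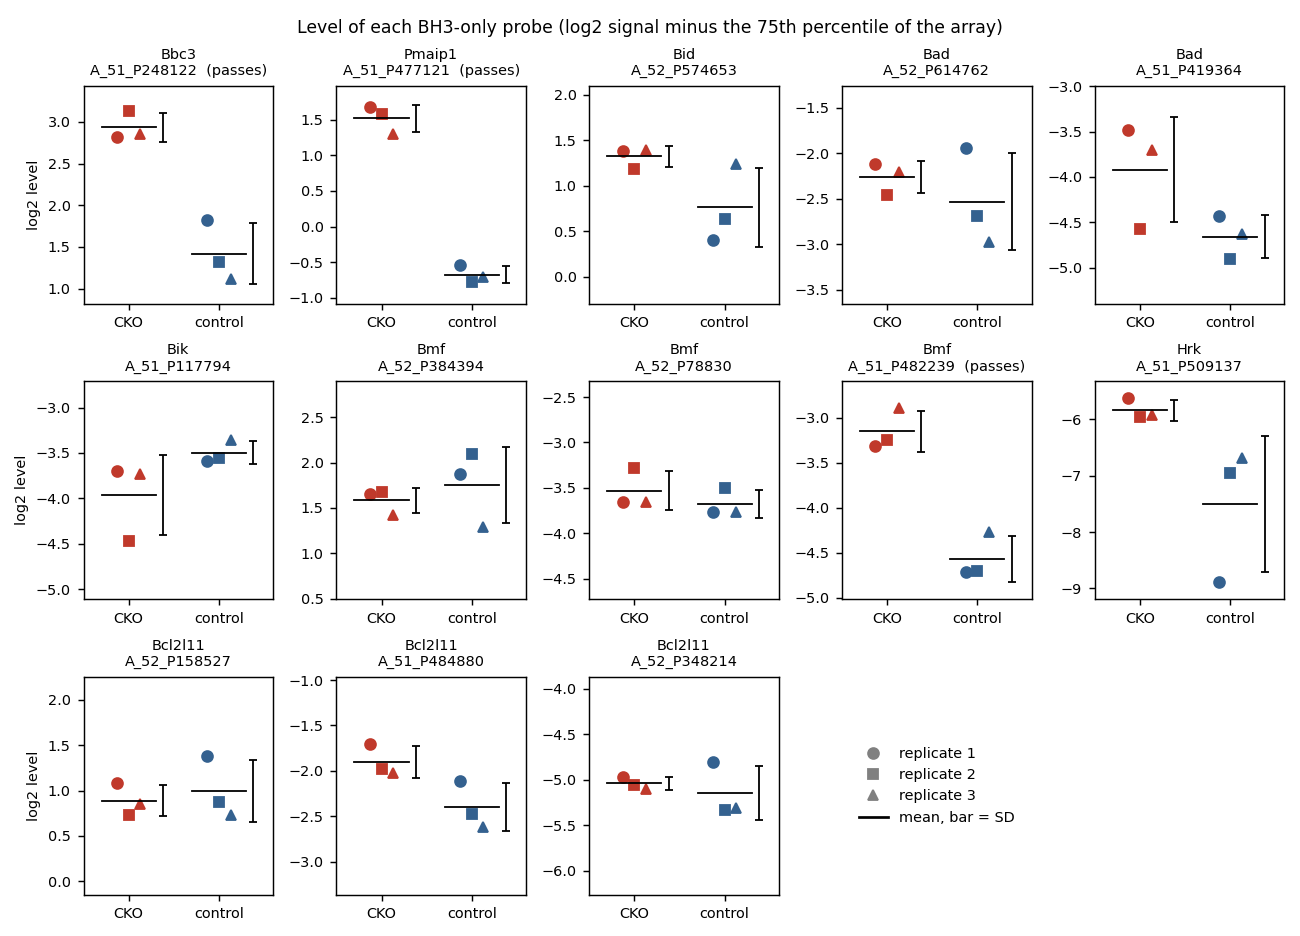
Level of each of the 13 BH3-only probes on every array, as log2 processed signal minus the array's 75th percentile (vertical axis, a separate range for each panel), with the 3 CKO arrays in red left of the 3 control arrays in blue; lines are means and bars are SD. The Pmaip1, Bbc3 and Bmf A_51_P482239 panels show 3 CKO arrays clear of all controls by 0.96 to 1.84, and control 1 lies far below the other arrays in the Hrk panel.

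Hrk encodes Harakiri, a BH3-only protein best known from neurons deprived of growth factors. Its probe, A_51_P509137 at chr5:117413620-117413679 on the plus strand, read -5.62, -5.96 and -5.93 in CKO embryos, against -8.89, -6.95 and -6.68 in controls. The CKO arrays were all higher than the controls, and control 1 was far below the rest. The raw signal was close to the local background, at 0.995 to 2.06 times it, and control 1 was the only one of the 78 member spots not well above background. The difference of 1.67 ± 0.57 (SE; 95% interval 0.31 to 3.03) did not pass (limma adjusted p = 0.107), and the same-day difference was 1.55. Hrk entered the test through the CKO arrays alone, so its differences are given as values only. Without control 1, the array not well above background, the difference was 0.98 (limma adjusted p = 0.0280), whereas normexp background correction gave -0.08. The direction of Hrk thus depended on how the background was treated.

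Bim, the product of Bcl2l11, is a broad initiator that is also sequestered on microtubules in some isoforms. The probe with the highest mean, A_52_P158527 at chr2:127903168-127903227 on the plus strand, read 1.08, 0.74 and 0.85 in CKO embryos, against 1.38, 0.88 and 0.73 in controls. These arrays were intermingled, and the difference was -0.10 ± 0.22 (SE; adjusted p = 0.761), turning to 0.09 without control 1. Probe A_51_P484880, whose sequence is printed above, read -1.71, -1.98 and -2.02 in CKO embryos, against -2.11, -2.47 and -2.62 in controls. Here the CKO arrays all lay above the controls, by 0.08 at the nearest. The difference of 0.50 ± 0.20 (SE; 95% interval 0.03 to 0.97) did not pass (limma adjusted p = 0.142). The third probe, A_52_P348214, spans 682 bases from position 127869853 and differed by 0.11 ± 0.19 (SE). It was close to background and turned to -0.08 with normexp correction and -0.19 with quantile scaling.

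Bid encodes a BH3-only protein that caspase-8 cleaves, linking death receptors to mitochondria. Its probe, A_52_P574653 at chr6:120918747-120918806 on the minus strand, read 1.38, 1.19 and 1.40 in CKO embryos, against 0.40, 0.64 and 1.24 in controls. The genotypes overlapped, as CKO 2 lay below control 3. The difference was 0.56 ± 0.24 (SE; 95% interval -0.02 to 1.14; adjusted p = 0.169), and 0.43 within the shared scan day.

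Bmf encodes a BH3-only protein known to associate with the actin motor complex through a dynein light chain. Its 3 probes lie on the minus strand of chromosome 2. The brightest, A_52_P384394 at chr2:118269632-118269691, read 1.65, 1.68 and 1.42 in CKO embryos, against 1.87, 2.10 and 1.29 in controls. The control arrays spanned the CKO ones, and the difference was -0.17 ± 0.24 (SE; adjusted p = 0.647), moving to 0.00424 without control 2. Probe A_52_P78830 at chr2:118272090-118272149 differed by 0.15 ± 0.18 (SE; adjusted p = 0.592). Probe A_51_P482239, the most 5′ of the 3 along the transcribed strand, read -3.31, -3.25 and -2.89 in CKO embryos, against -4.72, -4.71 and -4.27 in controls. Its genotypes were 0.96 apart at the nearest, with means of -3.15 ± 0.23 in CKO embryos and -4.56 ± 0.26 in controls (SD, n = 3 each). The difference was 1.41 ± 0.20 (SE; 95% interval 0.93 to 1.90; limma adjusted p = 0.0138), and 1.32 within the shared scan day. Its raw signal was 1.37 to 4.71 times the local background, and normexp correction gave a smaller difference of 0.71, which still passed (adjusted p = 0.0246). It did not pass with scan day as a block, which leaves 1 CKO array. Nor did it pass with the spike-in split as a block (limma adjusted p = 0.163) or without CKO 1, CKO 3 or control 2 (0.0552, 0.0622 and 0.0731). As the mean of its 3 probes, Bmf differed by 0.46 (adjusted p = 0.0684) and did not pass.

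**Figure D2:**
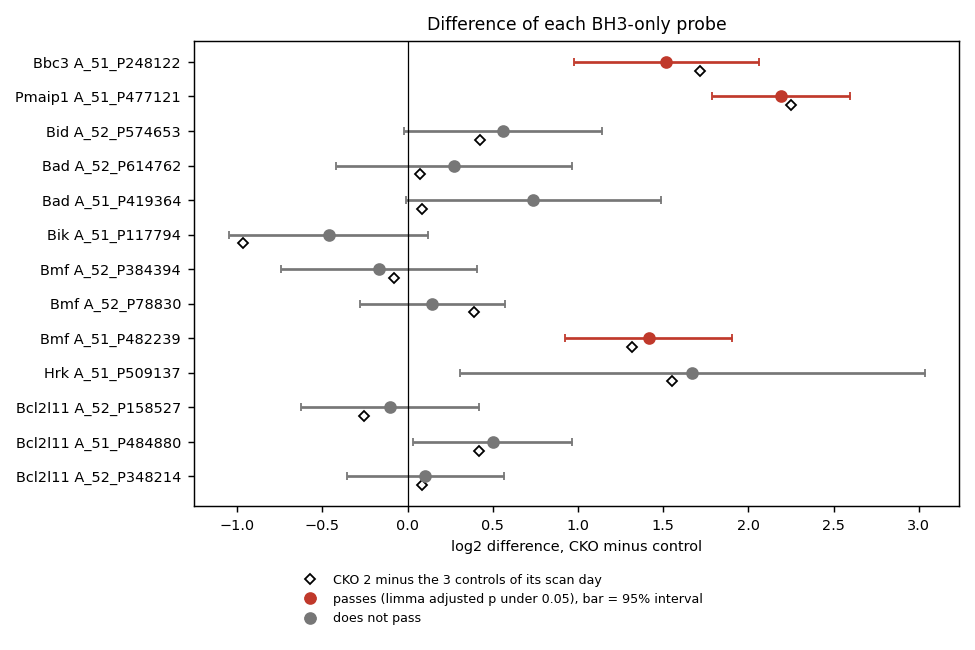
Log2 difference of each BH3-only probe, CKO minus control (horizontal axis), with its 95% interval; red points pass at a limma adjusted p under 0.05, and open diamonds give CKO 2 minus the 3 controls of its scan day. Pmaip1 at 2.19, Bbc3 at 1.52 and Bmf A_51_P482239 at 1.41 pass, and the same-day diamonds lie inside the interval of every probe.

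The 3 Bmf probes were also read as ratios within each array, which cancels the array's scaling but not its background. Only the shift of such a ratio between genotypes carries information. The ratio of A_51_P482239 to A_52_P384394 was -4.97, -4.92 and -4.31 (log2) in CKO embryos, against -6.58, -6.80 and -5.56 in controls. Those ranges did not overlap, with a shift of 1.58. Against A_52_P78830 the log2 ratio was 0.34, 0.04 and 0.76 in CKO embryos and -0.95, -1.20 and -0.51 in controls, a shift of 1.27. For Bcl2l11, the log2 ratio of A_51_P484880 to A_52_P158527 was -2.78, -2.72 and -2.88 in CKO embryos, against -3.48, -3.35 and -3.35 in controls, a shift of 0.60 without overlap. With the background treated as reported, these ratios of Bmf and of Bcl2l11 probes thus differed between the genotypes. Each of these 3 shifts had an exact two-sided permutation p of 0.1, the smallest that 3 against 3 arrays allow, before any adjustment over the 7 pairs of probes computed. The ratio of Bcl2l11 A_52_P348214 to A_51_P484880 had the same p, with a shift of -0.39 and no overlap. The pairs were looked at after the values of the probes had been seen. The share of such pairs over the whole array was not computed. Bmf A_51_P482239 lay near background, at 1.37 to 4.71 times it, as did A_52_P78830 at 1.70 to 3.23 times. With normexp correction these 2 probes differed by 0.71 and 0.04, and A_52_P384394 by -0.11. For Bcl2l11 it gave 0.36 (A_51_P484880) and -0.07 (A_52_P158527). The part of the background in the shifts was not tested.

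**Figure D3:**
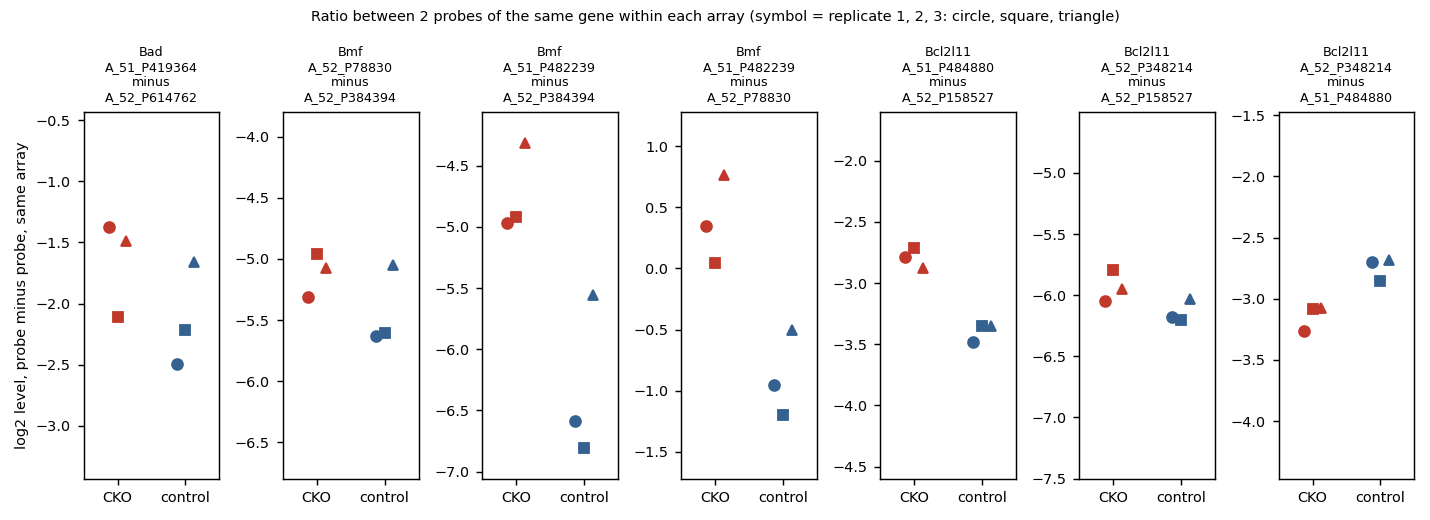
Log2 ratio between 2 probes of the same gene within each array (vertical axis, a separate range for each panel), for all 7 pairs, with CKO arrays in red left of control arrays in blue. The ratios of Bmf A_51_P482239 to both other Bmf probes lie higher in all 3 CKO arrays, with shifts of 1.58 and 1.27, while the ratio of the other 2 Bmf probes overlaps between genotypes, with a shift of 0.31.

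Bad encodes a sensitiser that growth factor signalling holds inactive by phosphorylation. The gene was read through the brighter of its 2 probes, A_52_P614762, which the array's annotation places on the minus strand, whereas RefSeq has Bad on the plus strand. Whether it reads Bad was not tested. Probe A_52_P614762 at chr19:6770968-6771027 read -2.11, -2.46 and -2.21 in CKO embryos, against -1.94, -2.69 and -2.97 in controls. The genotypes overlapped, and the difference was 0.27 ± 0.29 (SE; adjusted p = 0.535). Probe A_51_P419364 at chr19:6761992-6762051 read -3.49, -4.57 and -3.70 in CKO embryos, against -4.43, -4.91 and -4.63 in controls. CKO 2 lay among the controls here and the other 2 CKO arrays above them, so the pooled difference of 0.74 ± 0.31 (SE; adjusted p = 0.161) compares with a same-day difference of 0.08. Without CKO 2 it was 1.06 and passed (adjusted p = 0.0308). The annotation places these 2 probes on opposite strands, the first on the minus and the second on the plus strand, with starts 8976 bases apart, so by this annotation they do not read the same strand. With the plus-strand probe standing for Bad, the median of the 8 genes was 0.65 in place of 0.42, and the counts of genes that passed were the same.

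Bik encodes a BH3-only protein of the endoplasmic reticulum. Its probe, A_51_P117794 at chr15:83625939-83625998 on the plus strand, read -3.70, -4.47 and -3.73 in CKO embryos, against -3.59, -3.56 and -3.35 in controls. All CKO arrays were lower, the nearest by 0.11. The difference was -0.46 ± 0.24 (SE; 95% interval -1.05 to 0.12) and did not pass (limma adjusted p = 0.234). CKO 2 contributed most of it, the same-day difference being -0.97 and the difference without CKO 2 being -0.21.

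The 6 genes that did not pass had differences between -0.46 and 1.67. Arrays of the genotypes did not overlap for 4 of the 8 genes: Pmaip1, Bbc3 and Hrk were higher in CKO embryos and Bik was lower. Over all genes tested, 41.9% did not overlap, 22.8% higher and 19.2% lower in CKO, so the members' share was near that of the whole array.

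Around these initiators, the rest of the mitochondrial pathway was read from lists written for the purpose. The guardians Bcl2, Bcl2l1, Bcl2l2 and Mcl1, which hold BAX and BAK in check, gave no call in the limma test, and none had an unadjusted p under 0.05. Their differences ran from -0.54 ± 0.29 for Bcl2 to 0.30 ± 0.16 (SE) for Bcl2l1, the gene with the smallest p (adjusted p = 0.236), with a median of 0.04. The remaining 4 guardians on the list were not tested. One of them, Bcl2a1b, had a signal well above background in 2 of 3 CKO samples and in no control. Set against the detection floor in the controls, its CKO mean was 1.72-fold higher, with the CKO array not well above background included. With no filter on dim probes it was the 1 guardian that passed (limma adjusted p = 0.0443). Its controls read -8.73, -8.90 and -8.89, all not well above background, so that p does not rest on a measured spread. Bcl2a1b has near-identical copies in the genome, so its probe may read them too.

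Of the 3 pore-forming effectors 1 rose and 1 fell. Bax read 3.41, 3.60 and 3.43 in CKO embryos, against 2.97, 2.58 and 2.79 in controls, and rose by 0.70 ± 0.17 (SE; 1.62-fold; adjusted p = 0.0498). That call lay at the threshold and was lost in 11 of 17 alternative settings. Bok read 1.17, 1.43 and 1.10 in CKO embryos, against 3.29, 2.51 and 2.67 in controls, and was 3.01-fold lower in CKO (limma adjusted p = 0.0159; same-day difference -1.39). Both genes showed no overlap between genotypes. Bak1 differed by 0.16 ± 0.18 (SE) and did not pass.

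Downstream, Casp9, the initiator caspase of the apoptosome, differed by 0.21 ± 0.15 and its scaffold Apaf1 by 0.12 ± 0.20 (SE), and neither passed. Among 9 atypical BH3 proteins tested, Bnip3l, a receptor for mitophagy, was 1.71-fold lower (adjusted p = 0.0309), a call lost in 8 of 17 alternative settings. No gene of that list passed upward (limma), and 0 to 2 fell with an array left out. At an unadjusted limma p under 0.05, 0 were higher and 5 lower, beside 17.8% and 14.8% of all genes tested.

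Regulators of the BH3-only genes or proteins were followed in 22 genes, of which 3 passed upward and none downward (limma). That is 13.6% upward, beside 5.24% of all genes tested that rose and 5.32% that fell. At an unadjusted limma p under 0.05, 7 were higher and 0 lower, where the array as a whole had 17.8% higher and 14.8% lower. With an array left out 0 to 4 rose and 0 to 1 fell, and none rose with scan day or the spike-in split as a block or with no filter on dim probes. Mdm2, the ubiquitin ligase that restrains p53 and is itself a p53 target, read 1.15, 0.79 and 1.07 in CKO embryos, against 0.14, 0.12 and -0.04 in controls. It rose by 0.93 ± 0.16 (SE; adjusted p = 0.0245), without overlap, a call lost in 8 of 17 alternative settings. Casp8, which cleaves Bid, rose by 0.67 ± 0.15 (SE; adjusted p = 0.0421), a call lost in 9 of 17. The third gene counted was Foxo3, a transcription factor known to drive Bim and PUMA. It was well above background on only 1 control array and entered the test through the CKO arrays alone, so its difference of 2.12 ± 0.44 (SE; adjusted p = 0.0360) is given as a value only. Normexp correction gave 0.14 (adjusted p = 0.531), and 9 of 16 alternative settings did not pass it. Trp53 itself, the gene of p53, differed by 0.03 ± 0.29 (SE; adjusted p = 0.957).

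Known p53 targets outside the BCL2 family were followed in 25 genes. Of these 11 rose, 44% of the list beside 5.24% of all genes tested that rose, and none fell (limma). At an unadjusted limma p under 0.05, 16 were higher and 0 lower, beside 17.8% and 14.8% of all genes tested. Phlda3, a repressor of AKT signalling, read 3.75, 3.68 and 3.53 in CKO embryos, against 2.0, 1.76 and 1.69 in controls (3.58-fold higher in CKO; adjusted p = 0.00356). Cdkn1a, the cell-cycle inhibitor p21, read -0.40, -0.96 and -0.55 in CKO embryos, against -2.58, -2.66 and -2.45 in controls (3.81-fold higher; adjusted p = 0.00492). Neither gene overlapped between genotypes, as for Pmaip1 and Bbc3. Eda2r, a TNF receptor family member, rose 5.01-fold, Ccng1 (cyclin G1) 3.48-fold, the death receptor gene Fas 2.82-fold and Trp53inp1, a p53 cofactor, 2.77-fold. The differences of Eda2r and Fas depended on the background treatment, being 2.33 and 1.5 as reported and 1.15 and 0.95 with normexp correction, where both passed. The list's median difference was 0.99, and 0.65 within the shared scan day. Its count of rises was 4 to 13 with an array left out and 0 with scan day or the spike-in split as a block. The list was written with earlier results of these data known, so its direction is no independent evidence.

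**Figure D4:**
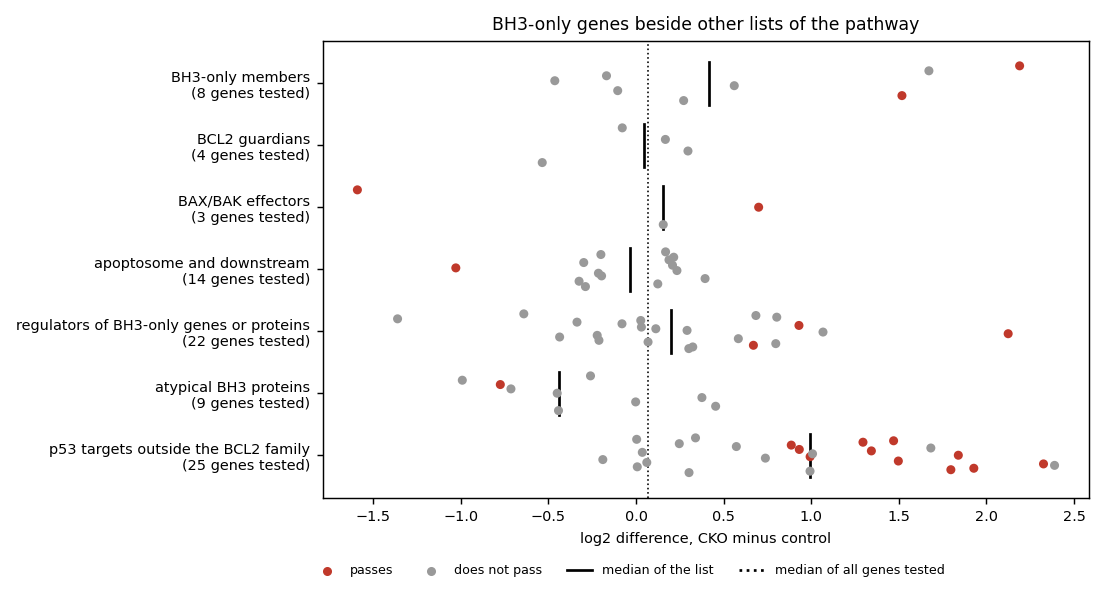
Log2 difference of each tested gene, CKO minus control (horizontal axis), for the BH3-only genes and 6 other lists of the pathway, with the median of each list as a bar and that of all genes as a dotted line at 0.07; red points pass at a limma adjusted p under 0.05. The p53 targets have the highest median, 0.99, and the 4 guardians lie between -0.54 and 0.30.

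The genes whose level followed a member most closely were taken by Pearson's r over the 6 arrays, among 14191 genes well above background on all of them. With so few arrays and 2 genotypes, the nearest genes of any gene reach high values, and here they had r of 0.962 to 0.999 throughout. For Pmaip1 they were Acpp, Phlda3 and Elf5, all at 0.998, of which Phlda3 is on the list of p53 targets and Elf5 on that of trophoblast markers. For Bbc3 they were Vstm2l, Tmem158 and Chrna7. All 6 of these genes were higher in CKO embryos and passed. They were chosen by likeness over the same 6 arrays, so this follows from the choice and is no separate result. For the members that did not pass, the nearest gene was Tnip1 for Bid, Dpysl5 for Bad, Commd1 for Bik, Pigc for Bmf and Pde6d for Bcl2l11. None of these passed, which likewise follows from the choice. Hrk was not compared, as control 1 was not well above background. Bbc3 and Pmaip1 had r = 0.965 over the 6 arrays and 0.452 after the mean of each genotype had been removed, so most of the likeness lay between genotypes.

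**Figure D5:**
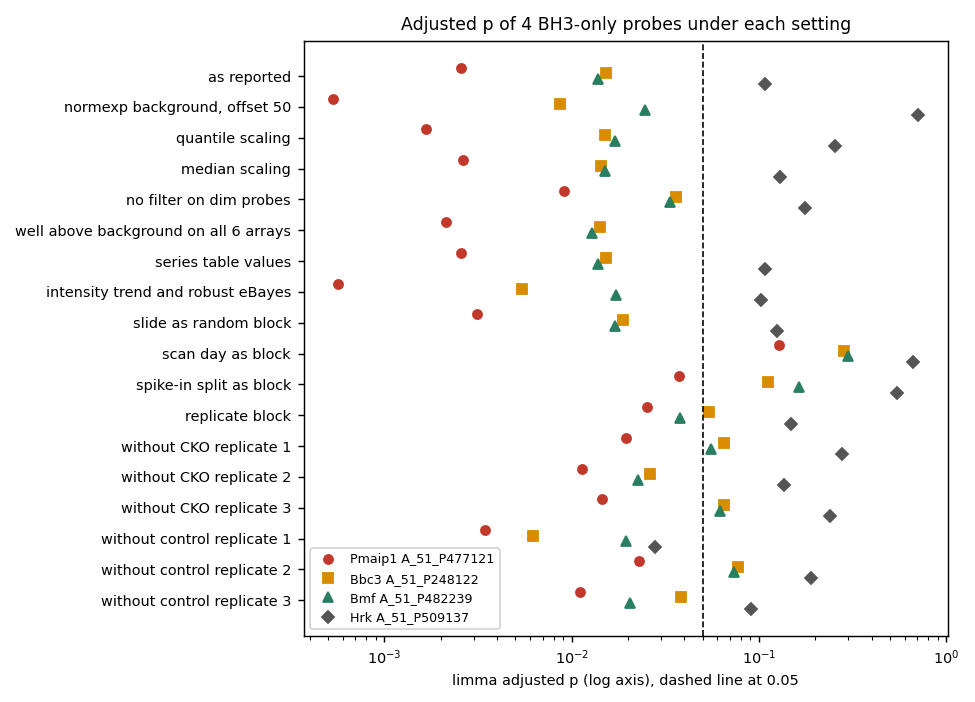
Limma adjusted p (horizontal log axis, dashed line at 0.05) of 4 BH3-only probes under each processing setting (vertical axis). Pmaip1 lies left of the line in every setting shown except scan day as a block, which leaves 1 CKO array against the controls. Bbc3 and Bmf A_51_P482239 cross it in 6 and 5 settings.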

How the data were processed

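Per the labels, 250 ng of total RNA per sample was labelled with Cy3. The deposited scanner files hold intensity values made with Agilent Feature Extraction 9.5, per the submitters' processing notes. Per the file headers, the processed intensity is background-subtracted and detrended. Flags (unit: other) for background, saturation and outliers are per the file headers too. The deposited series table equalled that processed signal at 100% of spots and was an alternative.

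Here, control and outlier spots were left out, replicate spots averaged, log2 taken, and each array's 75th percentile (957.5 to 1627 units) subtracted. Probes that either genotype showed well above background on its 3 arrays were compared by limma 3.58.1 (lmFit, eBayes, two-sided; R 4.3.3), with Benjamini-Hochberg adjustment over 27834 probes and a threshold of 0.05. Probes were named through RefSeq: 22951 by accession, 6659 by symbol, 3109 by synonym; 8455 kept the array's name. Python 3.11.15 and matplotlib 3.10.9 were also used. The fit was tested on simulated data.

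The members, lists and tests were chosen with earlier results of these data known. Named genes were all members, Smarca4, and per list the genes that passed, up to the 6 largest, or else that with the smallest p. Other genes are examples chosen after their values were seen. Results for some genes of the lists are not reported here. The number of arrays limits the precision. Alternatives were quantile, median and normexp (offset 50) processing, filters, eBayes options, a 2-fold threshold, probe means, blocks for slide, scan day, spike-in split and replicate, and each array left out.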

Additional observations from a re-analysis of the deposited data

How the results depend on the processing

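The count of BH3-only genes that rose, 2 as reported, was 0 with scan day as a block, 1 with the spike-in split as a block, 1 with the replicate block (Bbc3 being lost, adjusted p = 0.0539), and 1 to 3 with an array left out; it was 2 in every other setting, and the count that fell was 0 in all. The count of 3 came without control 1, where Hrk, a probe close to background, was the third gene. Over all genes, 787 rose and 799 fell as reported. These counts were 316 and 378 with no filter on dim probes, 0 and 0 with scan day as a block (1795 genes having an unadjusted p under 0.05, against 4890 as reported), 34 and 88 with the spike-in split as a block, and 268 and 304 with the replicate block. With an array left out, 116 to 1517 rose and 185 to 1103 fell. The scan-day block leaves 1 CKO array against the controls, so its counts cannot be read as a loss of the differences. Of 220 alternative values for the 13 probes, 201 kept direction and side of the threshold, 12 lost the call, 2 gained it and 5 changed sign. Most of the 201 belong to the 10 probes that did not pass as reported. The 3 probes that passed had 17 alternatives each, and lost the call in 6 (Bbc3), 5 (Bmf A_51_P482239) and 1 (Pmaip1). The series table equalled the processed signal, so that alternative could only repeat the result. The sign changes were Hrk at -0.0753 and Bcl2l11 A_52_P348214 at -0.0815 with normexp correction, that Bcl2l11 probe at -0.19 with quantile scaling, Bcl2l11 A_52_P158527 (-0.24 to 0.0863 with an array left out, the highest without control 1) and Bmf A_52_P384394 (-0.40 to 0.00424, the highest without control 2). The cause was not tested. The difference ran from 2.09 to 2.30 for Pmaip1, 1.37 to 1.72 for Bbc3 and 0.71 to 1.56 for Bmf A_51_P482239. Alternatives for the context genes were added after seeing the data. Whether the replicate numbers pair the samples was not settled. The correlations of same-numbered deviations were -0.127, 0.0803 and 0.0906, and not every array correlated best with its own number. Such values, from 3 arrays per genotype, cannot exclude a pairing. With the replicate block 6 of the 25 p53 targets rose, against 11 without it.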
